A study of Homo sapiens with 6 samples.

Results

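The genes HS3ST3A1, HS3ST3B1, FUT8 and B3GAT1 encode enzymes that finish the sugar chains of the cell surface and the extracellular matrix. They are 4 of the 674 genes that the authors deposited as shared by 2 comparisons, one for each of 2 imatinib-resistant lines with the sensitive parent. They were chosen by name from that table, with its fold changes already known, so their values are a description and carry no test. The cells were K562, a line established from human chronic myeloid leukaemia and driven by the BCR-ABL1 fusion kinase. RNA was sequenced from 6 libraries, with 2 from the resistant line K562-IR1, 2 from the resistant line K562-IR2 and 2 from the imatinib-sensitive parent K562-WT. Both resistant lines were grown with imatinib, a kinase inhibitor, always present, and the parent is not described as treated, so resistance and drug exposure cannot be told apart. One library per group is labelled as repeated, with no word on separate cultures. Whether a resistant line is a single clone is not stated.

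Heparan sulfate is a long chain of sugars carried by proteoglycans, on which growth factors, chemokines and some viruses dock. HS3ST enzymes add a sulfate to the glucosamine units late in its synthesis, one of the rarest of its modifications, and the HS3ST3A1 and HS3ST3B1 products create the docking site for herpes simplex virus glycoprotein D. FUT8 adds the core fucose to N-linked glycans, which tunes many receptors and the binding of antibodies to Fc receptors. B3GAT1 adds the glucuronic acid of the HNK-1 carbohydrate, known on natural killer and T cells as CD57 and on neural adhesion proteins.

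Each value is a log2 fold change computed by the authors, one per gene and comparison. No error, p-value or library value was used with them, so their depth is unknown and no difference could be compared with replicate error. The header names neither the resistant line of a column nor the group on top of the ratio. The columns are therefore called the second and the first, and a positive fold is not read as higher in the resistant cells. The WT libraries serve in both comparisons, which therefore share the chance error of those libraries. No listed gene had an absolute log2 fold change under 1.5, and 0 genes had opposite signs in the columns. The embryonic globin gene HBE1, a marker of the erythroid character of K562 cells, was listed, and of 5 markers of other cell types COL1A1 was. A table of selected genes does not allow the cell type to be checked further.

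The 4 enzymes were split by sign. HS3ST3A1, HS3ST3B1 and FUT8 had negative folds in both columns, and B3GAT1 had positive ones. Among all listed genes 25.7% were negative in both columns and 74.3% positive in both. In the second column all 4 enzymes had an absolute log2 fold change of 4 or more, which is a fold of 16, against 22% of listed genes. In the first column FUT8 and B3GAT1 did, against 7.57% of listed genes, and the same 2 did in both columns, against 6.53%. These counts used the values by which the genes were picked, so nothing is read from them about the enzymes as a set. The median absolute log2 fold change of the 4 enzymes was 4.73 in the second and 3.82 in the first column of the authors' deposited table, beside 2.89 and 2.28 over all listed genes.

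**Figure D1:**
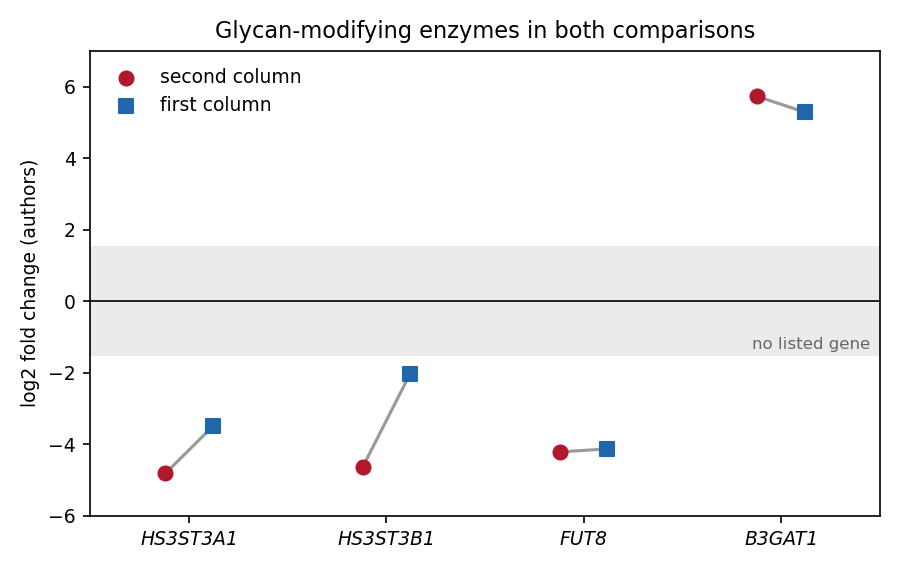
Log2 fold change of each enzyme in the authors' deposited table, with the second column as circles and the first as squares, joined per gene. The grey band marks absolute values under 1.5, where the table has no gene. B3GAT1 alone lies above 0, and HS3ST3B1 has the widest gap, with -4.64 in the second and -2.03 in the first column.

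HS3ST3A1 (ENSG00000153976) and HS3ST3B1 (ENSG00000125430) are close copies on chromosome 17 that encode heparan sulfate sulfotransferases of similar specificity. HS3ST3A1 had a log2 fold change of -4.82 in the second and -3.50 in the first column of the authors' deposited table, folds of 28.2 and 11.3 in size. By the mean of both columns it ranked 13 of the 173 negative genes. For HS3ST3B1 the authors' deposited table gave -4.64 in the second and -2.03 in the first column, folds of 24.9 and 4.09 in size. It ranked 18 among the negative genes in the second column but 106 in the first. In the second column the copies were thus alike, with HS3ST3A1 lower by 0.18 on the log2 scale, a 1.13-fold ratio. In the first column of the authors' deposited table HS3ST3A1 minus HS3ST3B1 came to -1.47 on the log2 scale, a 2.77-fold ratio. Without errors these differences could not be tested.

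Part of the transcripts of the copies, mainly the coding sequence of exon 2, is nearly the same, which bears on both values. In GENCODE release 29 the coding sequence, taken without the stop codon, is 1218 bases long in HS3ST3A1 and 1170 in HS3ST3B1, each spread over 2 exons. In exon 1 of HS3ST3A1, 57.9% of 599 coding bases had an identical partner in the alignment with HS3ST3B1. In exon 2 it was 99.4% of 619, with 1 mismatch and 3 bases at the end that have no partner. The longest stretch shared without a difference ran for 537 bases. No other HS3ST gene came near this: the longest run that HS3ST3A1 shared with HS3ST1, HS3ST2, HS3ST4, HS3ST5 or HS3ST6 was 26 bases, with HS3ST6. The likeness starts inside exon 1. A stretch there and one across the exon junction are shown because they mark where the copies become nearly the same, with capitals at the bases that differ. Among stretches of 80 bases of exon 1 aligned without a gap, the first pair had the most differences, 13, nearly all at its 5′ end. It is not the least alike part of exon 1, where only 57.9% of all coding bases had an identical partner. In the window centred at base 415 of HS3ST3A1, identity was 30%. The second pair covers the last 80 bases of exon 1 and the first 80 of exon 2, with 4 differences in 160 bases.
HS3ST3A1 (coding bases 427 to 506): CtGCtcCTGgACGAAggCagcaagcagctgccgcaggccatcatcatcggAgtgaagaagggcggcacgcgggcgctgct
HS3ST3B1 (coding bases 382 to 461): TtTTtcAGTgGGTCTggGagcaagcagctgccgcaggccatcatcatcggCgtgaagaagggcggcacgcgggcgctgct
HS3ST3A1 (coding bases 520 to 679): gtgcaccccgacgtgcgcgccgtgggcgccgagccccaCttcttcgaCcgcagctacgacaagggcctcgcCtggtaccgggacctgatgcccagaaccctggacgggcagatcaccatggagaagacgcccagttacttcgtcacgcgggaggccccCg
HS3ST3B1 (coding bases 475 to 634): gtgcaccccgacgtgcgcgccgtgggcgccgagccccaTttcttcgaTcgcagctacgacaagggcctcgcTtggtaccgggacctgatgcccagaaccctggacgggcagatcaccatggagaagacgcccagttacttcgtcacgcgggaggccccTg

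Of the windows of 100 bases in the HS3ST3A1 transcript, 18.0% (438 of 2428) were also in the HS3ST3B1 transcript. The same 438 windows were 8.31% of the 5268 in the longer HS3ST3B1 transcript. With windows of 50 bases the shares were 21.2% and 9.87%, and with 150 bases 16.3% and 7.44%. A fragment from these windows fits both genes. The sources used here state neither the read length nor how multiply mapped reads were counted, so both HS3ST3 values are uncertain to that extent. The unlike sizes in the first column show only that the copies did not carry one common value. Searching all GENCODE transcripts on both strands for windows of 100 bases found no other gene sharing sequence with either copy, and none with B3GAT1.

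**Figure D2:**
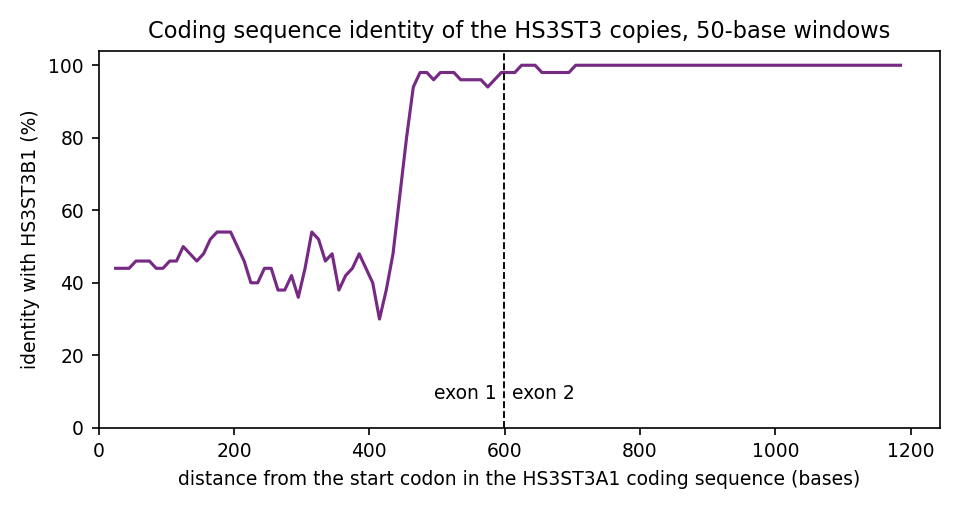
Identity of the HS3ST3A1 coding sequence with HS3ST3B1 in windows of 50 bases, plotted against the distance of the window's centre from the start codon, with the exon junction dashed. Identity is as low as 30% before the centre at base 465, and from there on it is 94% or more.

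The HS3ST3 genes lie within 1 Mb of each other and are transcribed from opposite strands, with 10 annotated genes between them, 2 of them protein-coding. None of those 10 was among the listed genes, which is near the background with 1.12% of all annotated genes listed. The other listed gene of the locus was MGC12916 (ENSG00000266709), a long non-coding RNA by GENCODE that lies inside HS3ST3B1 on the same strand. The authors' deposited table gave it -4.94 in the second and -2.08 in the first column. These values differed from those of HS3ST3B1 by -0.30 and -0.05 on the log2 scale. Of the 1652 exon bases of MGC12916, 0 fall in an exon of HS3ST3B1, so it sits in intronic sequence. Being on the same strand, its reads cannot be told apart from reads of unspliced HS3ST3B1 RNA. It was the gene second nearest to HS3ST3B1 of the other 673 when likeness was taken as the distance between the pairs of log2 folds (0.31).

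The HS3ST3 promoters are shown as the start regions of the pair of copies that carried the same sign. They are RefSeq sequences of the build GRCh38.p14 from 250 bases before to 50 bases after the annotated start, while the authors used hg19. Capitals mark matches, on either strand, to any of 8 motifs. The motifs were the TATA box (TATAAA), the CCAAT box (CCAAT), the GC box (GGGCGG), the cAMP response element (TGACGTCA), an E-box (CACGTG), an AP-1 site (TGANTCA), a STAT site (TTCNNNGAA) and a GATA site (AGATAA).
HS3ST3A1 (chr17:13601880-13602179, minus strand): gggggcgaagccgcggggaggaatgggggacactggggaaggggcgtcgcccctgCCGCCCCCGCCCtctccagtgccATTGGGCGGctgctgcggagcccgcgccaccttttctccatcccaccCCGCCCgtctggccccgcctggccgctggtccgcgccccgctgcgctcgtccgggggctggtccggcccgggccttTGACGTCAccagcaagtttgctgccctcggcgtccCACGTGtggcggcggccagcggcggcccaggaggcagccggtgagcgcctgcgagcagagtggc
HS3ST3B1 (chr17:14300831-14301130, plus strand): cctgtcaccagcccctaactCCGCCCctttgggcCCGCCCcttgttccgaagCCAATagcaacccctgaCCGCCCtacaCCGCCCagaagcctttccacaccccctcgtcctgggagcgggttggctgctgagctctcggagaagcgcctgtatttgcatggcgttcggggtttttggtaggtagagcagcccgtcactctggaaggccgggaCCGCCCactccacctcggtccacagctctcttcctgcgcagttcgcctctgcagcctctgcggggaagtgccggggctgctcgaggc

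The HS3ST3A1 window held 4 GC boxes, a CCAAT box that overlaps one of them, a cAMP response element and an E-box. The HS3ST3B1 window held 5 GC boxes and a CCAAT box. Of all 35116 promoters of the RefSeq table, 15786 held a GC box, and 34.6% a CCAAT box. The cAMP response element was in 1.85% and the E-box in 7.26%. No STAT or GATA letters of this form were in either window, and these are in 7.66% and 10.3% of promoters. Unlike the coding ends, the start regions differ in composition, with 34 CpG sites and 76.3% G or C in HS3ST3A1 and 20 CpG sites and 65.3% in HS3ST3B1. The median promoter has 14 CpG sites and 58.7% G or C. Letters that match are a description and do not show that a factor binds.

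FUT8 (ENSG00000033170), the only enzyme that makes core fucose in mammals, lies on chromosome 14. It had a log2 fold change of -4.22 in the second and -4.13 in the first column of the authors' deposited table. The folds were 18.6 and 17.6 in size, so the columns nearly coincided. It ranked 29 and 11 among the 173 negative genes in these columns, and 11 by their mean. Within 1 Mb of FUT8 the annotation has 47 other genes, 16 of them protein-coding, and 0 were listed. With 1.12% of all annotated genes and 2.41% of the protein-coding ones listed, a count of 0 is near the background and no result. An antisense RNA, FUT8-AS1, overlaps the start of FUT8 on the other strand and shares 14.3% of the transcript's windows of 100 bases. Whether the counting used strand is not stated, so reads of the overlap cannot be assigned, and FUT8-AS1 itself was not among the listed genes. RefSeq has 3 start sites for FUT8, and their promoters differ widely, with 1, 23 and 40 CpG sites. The table has 1 value for the gene and does not say which start was in use. The start region with 1 CpG site held an AP-1 site, letters found in 7.71% of promoters. The region with 23 held 2 CCAAT boxes and a GC box, and the region with 40 held 2 GC boxes. None of the 3 start regions held the STAT or GATA letters above.

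Of 21 genes of fucose transfer, fucose supply and fucose removal, FUT8 was the only one listed, and it was picked for being so. None of the 18 genes of N-glycan processing and branching was listed. With 2.41% of annotated protein-coding genes listed, counts of 1 and 0 in lists of this length are near the background and no result. A gene that is not listed may be unchanged, too low to be called or changed in only one comparison, so nothing follows about its level.

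B3GAT1 (ENSG00000109956) on chromosome 11 was the positive member. It had a log2 fold change of 5.72 in the second and 5.28 in the first column of the authors' deposited table, folds of 52.8 and 38.9 in size. It ranked 4 of the 501 positive genes by the mean of both columns, and 2 of the 352 that are protein-coding. How many reads stand behind the fold in either group is unknown. Its relatives B3GAT2 and B3GAT3 shared at most 29 identical bases in a row with its coding sequence. Of the 14 genes of HNK-1 synthesis and its carrier proteins, B3GAT1, picked for being listed, was the only one, a count that is again near the background. The list's sulfotransferase CHST10, which completes the epitope, and the carrier NCAM1 were not, and no value here bears on the carbohydrate itself.

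The B3GAT1 start region from RefSeq (GRCh38.p14) is shown beside those of the HS3ST3 pair, as that of the member with the opposite sign, with capitals at the same motifs.
B3GAT1 (chr11:134412193-134412492, minus strand): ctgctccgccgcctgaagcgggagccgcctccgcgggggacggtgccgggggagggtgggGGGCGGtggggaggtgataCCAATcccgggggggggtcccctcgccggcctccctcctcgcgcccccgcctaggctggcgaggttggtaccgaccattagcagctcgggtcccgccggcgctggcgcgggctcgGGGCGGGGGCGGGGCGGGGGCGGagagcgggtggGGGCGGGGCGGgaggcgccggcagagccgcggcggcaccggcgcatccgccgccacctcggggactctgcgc
The window held 7 GC boxes, several of them overlapping, and a CCAAT box. It had 42 CpG sites and 81.0% G or C, and 95.0% of all promoters had as many CpG sites or fewer.

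B3GAT1 did not stand alone on its chromosome end. Of the 31 other annotated genes within 1 Mb, 3 were listed, and all 3 were positive, as 74.3% of all listed genes were. Over the annotation 1.12% of genes were listed, and with a single locus no test was made. B3GAT1-DT (ENSG00000255545), a non-coding RNA transcribed away from B3GAT1 on the other strand, is the next gene on one side. The authors' deposited table gave it 4.50 in the second and 3.56 in the first column. GLB1L3, a beta-galactosidase-like gene on the other side, had 2.57 in the second and 2.81 in the first column of the authors' deposited table. For the long non-coding RNA LINC02714 the authors' deposited table gave 4.30 in the second and 2.58 in the first column. GLB1L2, the gene between B3GAT1 and GLB1L3, was not among the listed genes. Of the 4 genes, B3GAT1 had the largest fold in both columns.

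**Figure D3:**
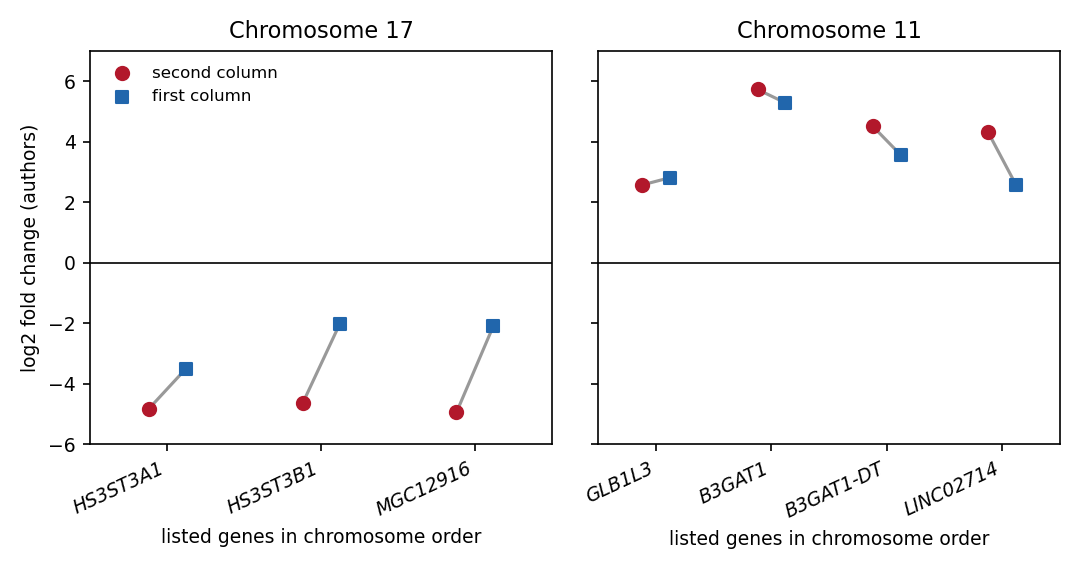
Log2 fold changes of the listed genes around the HS3ST3 copies on chromosome 17 and around B3GAT1 on chromosome 11, with the second column as circles and the first as squares. The 3 genes on chromosome 17 all lie below 0 and the 4 on chromosome 11 all above. Of all listed genes 25.7% were negative in both columns and 74.3% positive in both. HS3ST3A1, HS3ST3B1 and B3GAT1 were picked with their signs known, and MGC12916 reads cannot be told apart from unspliced HS3ST3B1 RNA. The signs are therefore not read as a result about either locus.

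The gap between the columns differed among the enzymes. It was taken as the size of the log2 fold in the second column minus its size in the first, which was 2.61 for HS3ST3B1, 1.32 for HS3ST3A1, 0.44 for B3GAT1 and 0.083 for FUT8 in the authors' deposited table. Over all listed genes the median was 0.47. All 4 enzymes had the larger value in the second column, as 76.7% of listed genes did. A gap of over 1, which is over 2-fold, was held by both HS3ST3 genes, against 24.9% of listed genes. HS3ST3B1 ranked 7 by gap among the 173 negative genes and HS3ST3A1 28, while FUT8 ranked 116. The HS3ST3 genes thus had wider gaps than the median listed gene, and FUT8 a narrower one. Whether any gap exceeds the error between libraries was not tested.

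**Figure D4:**
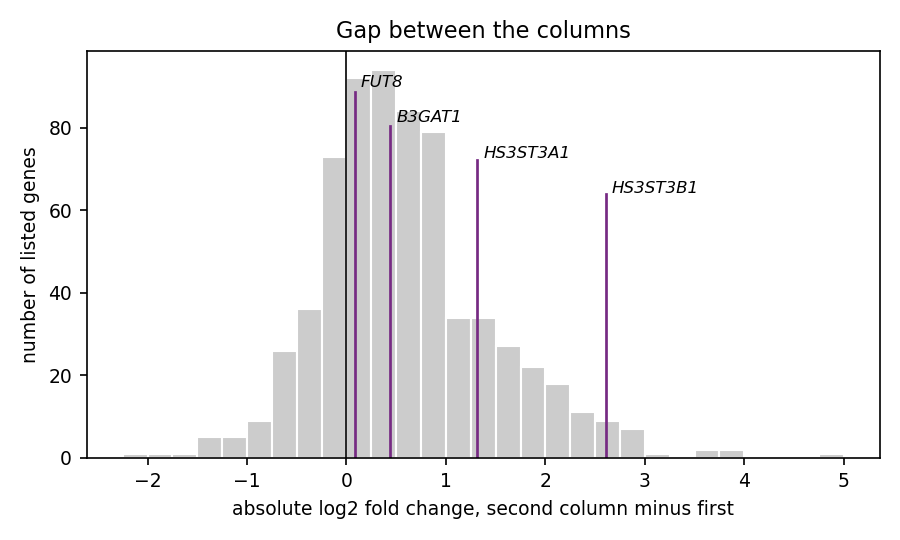
Number of listed genes by the size of the log2 fold in the second column minus its size in the first, in bins of 0.25, with lines at the 4 enzymes. The line of B3GAT1 (0.44) stands near the median of 0.47, that of FUT8 (0.083) below it, and that of HS3ST3B1 (2.61) in the upper tail.

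Genes with the most similar pair of folds were sought among the 590 listed genes with a proper symbol, by the distance between the pairs of log2 values over 2 comparisons. Nearest to HS3ST3A1 were THRB-AS1, RPA4, a subunit of a single-strand DNA binding complex, and VSTM4, at distances of 0.097, 0.24 and 0.36. Nearest to HS3ST3B1 were the pseudogene CD24P4, the neuropeptide gene NMU and the pseudogene PMPCAP1, at 0.22, 0.32 and 0.54. MGC12916, at 0.31, was nearer than NMU but had no proper symbol and was left out of this search. For FUT8 the nearest genes were the pseudogene CENPIP1, the membrane protein gene ANO5 and the sodium channel gene SCN9A, at 0.12, 0.15 and 0.22. For B3GAT1 they were ZFP42, a marker of pluripotent cells, LINC01257 and LINC02575, at 0.40, 0.55 and 0.68. None of the nearest genes is in a glycan list. The copies HS3ST3A1 and HS3ST3B1 were 1.48 apart, farther than HS3ST3A1 and FUT8 at 0.87.

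The wider set of glycan genes was read from 14 lists with 307 genes. Of these 15 were listed by the authors, beside 2.41% of all annotated protein-coding genes (480 of 19951, expressed in K562 cells or not). The 4 enzymes among the 15 were picked from the table because they are listed, so the count is not read as an enrichment. Of the 15, 9 were positive and 6 negative, beside 74.3% positive over the whole table. Apart from the 4 enzymes, 8 were positive and 3 negative, and their median absolute log2 fold change was 2.72 in the second and 1.85 in the first column of the authors' deposited table. CD44 was the only one of those 11 with an absolute log2 fold change of 4 or more in the second column.

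Heparan sulfate synthesis had 3 of its 21 genes listed, and 2 of them are the HS3ST3 copies picked from the table. The other, beside a listing share of 2.41% of protein-coding genes, was GLCE, the epimerase that turns glucuronic into iduronic acid within the chain, with 3.78 in the second and 3.33 in the first column of the authors' deposited table. Its sign was thus opposite to that of the sulfotransferases that act after it. The chain polymerases and the N-, 2-O- and 6-O-sulfotransferase genes were not among the listed genes. SGSH, the lysosomal sulfamidase that helps break the chain down, had -2.42 in the second and -2.46 in the first column of the authors' deposited table. It was the only one listed of 12 genes of editing and breakdown. None of the 14 genes that build the linker or supply its precursors was listed.

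Of 15 genes for proteins that can carry heparan sulfate, 3 were listed, against the same share of 2.41%, with no test of the difference. The list was chosen with earlier results of these data known, so the count is not read as an enrichment. CD44, the hyaluronan receptor, had 4.70 in the second and 4.53 in the first column of the authors' deposited table. The glypican gene GPC6 had 2.78 in the second and 1.52 in the first column of the authors' deposited table. TGFBR3, the co-receptor betaglycan, stood at -2.66 in the second and -2.42 in the first column of the authors' deposited table. Carriers with positive and with negative folds were therefore both present.

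Other sugar-transfer steps had 1 listed gene each. ST8SIA4, which builds polysialic acid, had -2.72 in the second and -1.63 in the first column of the authors' deposited table. B4GALT6, a lactosylceramide synthase, had 2.78 in the second and 1.84 in the first column of the authors' deposited table. GALNT1, which starts mucin-type O-glycans, had 2.84 in the second and 2.40 in the first column of the authors' deposited table. These are 1 of 31 sialylation genes, 1 of 34 genes of galactose transfer and 1 of 48 genes of O-glycan synthesis. Beside them, 2.41% of all annotated protein-coding genes were listed. The counts given in this paragraph are too small to be read as a result against that share. DSE, the dermatan sulfate epimerase, was the 1 of 16 genes of chondroitin and dermatan sulfate, at 1.75 in the second and 1.52 in the first column of the authors' deposited table. Among 28 lectins, the galectin gene LGALS12 had 2.25 in the second and 1.85 in the first column of the authors' deposited table. The sialic acid receptor CD33 had 2.05 in the second and 1.81 in the first column of the authors' deposited table. The 16 genes for chondroitin and keratan sulfate carriers had 0 listed members. The list of 19 hyaluronan genes also had 0, but CD44, a hyaluronan receptor, was listed and counted among the heparan sulfate carriers.

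**Figure D5:**
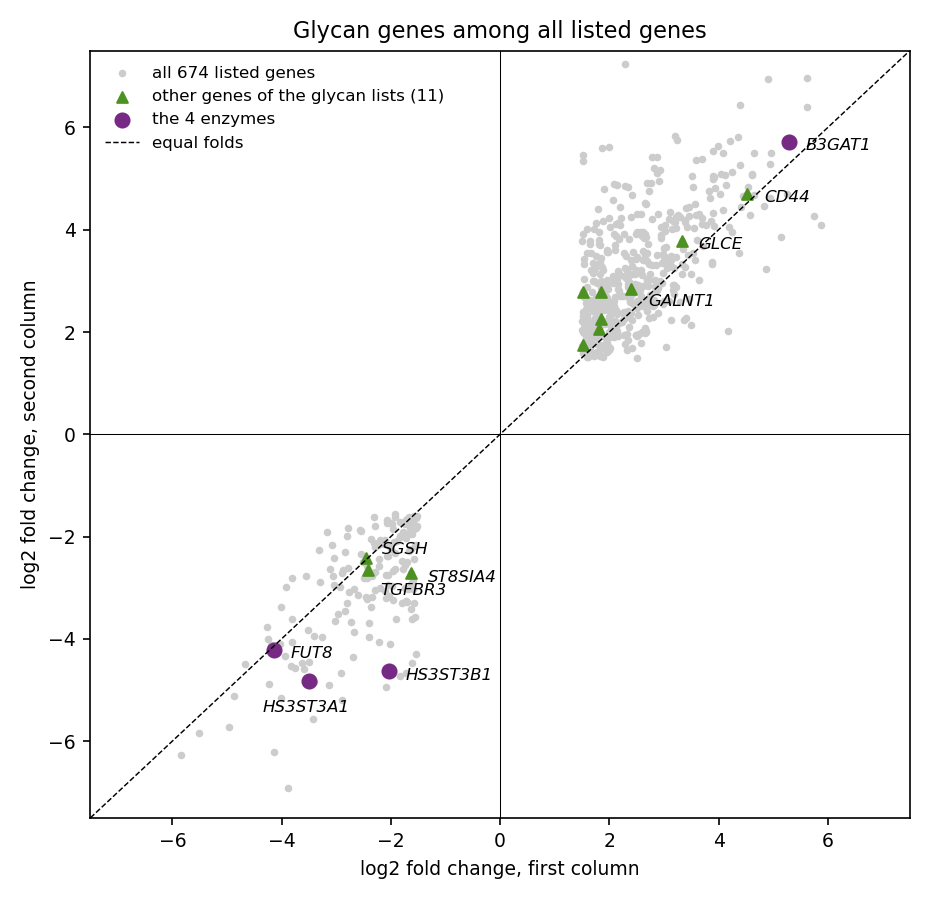
Log2 fold change in the second column (vertical) against the first (horizontal) for all 674 listed genes in grey, with the 4 enzymes as large circles and the other 11 listed glycan genes as triangles. The HS3ST3 genes lie off the dashed line of equal folds, with -4.82 and -4.64 in the second against -3.50 and -2.03 in the first column, and FUT8 lies close to it.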

How the data were processed

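RNA of K562 cells was sequenced from 6 libraries, 2 per group. The single table used here holds log2 fold changes that the authors deposited for 674 genes, in 2 columns. The submitters' processing notes name hg19, DESeq2 3.5, HISAT2 2.1.0, Subread and featureCounts, without their roles, settings or selection limits. The depth of the libraries is unknown, so no interval or test was computed.

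Symbols came from a gene name table (654 matches), gene types and order from GENCODE release 29 on GRCh38 (657 matches), which served for names and neighbourhood only. Coding sequences were aligned globally with Biopython 1.88 (match 2, mismatch -1, gap opening -10, extension -1), in steps checked on simulated sequences. Numbers were computed with Python 3.11.15.

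The members and the 14 glycan lists were chosen with earlier results of these data known. Named genes were the members, all listed genes of these lists, the 3 nearest genes by distance and listed genes within 1 Mb. Alternatives changed the summary of the columns, the genes ranked and the minimum fold. Steps that need library values were not run.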

Additional observations from a re-analysis of the deposited data

How the results depend on the processing

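No paired analysis was possible because the table holds no values per library, and leaving out a library, another normalisation or a low-count filter could not be run for the same reason. No summary of the columns could change a sign, since 0 listed genes had opposite signs. Taking the column with the lower absolute value in place of the mean (-3.34) moved HS3ST3B1 to -2.03. Ranks depended on the summary. With protein-coding genes alone, HS3ST3A1 ranked 8, FUT8 7 and B3GAT1 2, against 13, 11 and 4 among all listed genes of their sign. By the lower absolute value HS3ST3A1 ranked 23 and HS3ST3B1 97, and by the higher HS3ST3B1 ranked 19, FUT8 31 and B3GAT1 12, where HS3ST3B1 ranked 36 by the mean. A minimum absolute fold of 2 on the log2 scale in both columns left 4 positive and 5 negative glycan genes, from 9 and 6. With a minimum of 3 there were 3 positive and 2 negative, by fewer genes counted. The 5 negative genes included HS3ST3A1, HS3ST3B1 and FUT8, the 2 were HS3ST3A1 and FUT8, and B3GAT1 was positive at both limits. These enzymes were picked with their folds known, so nothing is read from the change of balance. The signs of all listed genes at these limits were not counted. Without the 4 enzymes and with no minimum fold, 8 were positive and 3 negative. The gap of FUT8 was -0.39 against the median of the other listed genes and -0.16 against protein-coding genes of its sign. That of B3GAT1 reversed, from -0.034 to 0.11, so it stood at the middle of the table. Among protein-coding genes 1 of the 3 nearest genes was shared for HS3ST3B1 and 1 for B3GAT1. Unknown depth limits every value here.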
